A study of Mus musculus with 4 samples.

Results

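The pericellular matrix is the thin shell of matrix that wraps each chondrocyte, the cell that makes and maintains cartilage. The genes described here are 10 of its main components, taken by symbol from a table of 25239 genes: Col6a1, Col6a2, Col6a3, Col4a1, Col4a2, Hspg2, Nid1, Nid2, Lamb1 and Lamc1. All 10 passed the filter on low counts, which kept 15522 genes. RNA was sequenced from cultured primary mouse chondrocytes in 4 libraries. The 2 control libraries came from mice with floxed Tiki2 alleles (Tiki2 fl/fl). The 2 conditional knockout (cKO) libraries came from mice that carry the same floxed alleles and a tamoxifen-inducible Cre recombinase driven by Col2a1, a gene that chondrocytes express. The sample labels call this transgene Col2a1-Cre/ERT in one field and Col2a-CreERT2 in another. All 4 cultures received 4-hydroxytamoxifen, which activates the Cre, and controls carry no Cre, so effects of the Cre and of Tiki2 loss cannot be told apart.

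In this shell, collagen VI forms beaded filaments made of 3 chains, and perlecan, a large heparan sulphate proteoglycan encoded by Hspg2, holds growth factors close to the cell. Collagen IV and laminins form the 2 sheet-like networks of basement membranes, the nidogens link one network to the other and to perlecan, and all of these are also found around chondrocytes. The shell passes mechanical and osmotic signals to the cell, and the study asks what loss of Tiki2, a Wnt-inactivating protease, does to chondrocytes.

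Promoter sequences are shown for the pairs of chains whose genes lie close together in the genome. RefSeq (GRCm38.p6, the mm10 assembly) gave windows from 250 bases before to 50 bases after the start site for 8 of the 10 genes. Col4a1 and Col4a2 are transcribed away from each other on chromosome 8, from start sites 21 bases apart, and their windows share 78 bases. The 2 windows are at chr8:11312777-11313076 on the minus strand and chr8:11312555-11312854 on the plus strand, with the shared bases in capitals.
Col4a1: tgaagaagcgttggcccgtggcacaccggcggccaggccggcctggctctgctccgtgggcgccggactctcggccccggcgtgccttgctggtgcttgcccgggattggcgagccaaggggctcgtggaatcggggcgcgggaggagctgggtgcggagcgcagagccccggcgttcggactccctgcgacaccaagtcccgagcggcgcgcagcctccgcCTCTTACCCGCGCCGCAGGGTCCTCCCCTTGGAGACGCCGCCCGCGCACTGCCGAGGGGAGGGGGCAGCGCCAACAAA
Col4a2: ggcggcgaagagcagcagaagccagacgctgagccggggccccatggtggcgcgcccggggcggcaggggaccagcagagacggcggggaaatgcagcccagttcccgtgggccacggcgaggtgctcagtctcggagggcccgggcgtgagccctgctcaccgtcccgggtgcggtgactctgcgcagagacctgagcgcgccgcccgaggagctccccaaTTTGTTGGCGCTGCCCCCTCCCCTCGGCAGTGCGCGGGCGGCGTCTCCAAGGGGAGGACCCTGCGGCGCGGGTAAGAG
The capitals of one line are the reverse complement of those of the other. The shared stretch covers both start sites, so for each gene part of it lies before the start and part inside the gene.

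Col6a1 and Col6a2 lie on chromosome 10 on the minus strand, 85161 bases apart. Because the study concerns Wnt signalling, the core of the TCF/LEF motif, CTTTGA, was searched on both strands in every promoter window. This core is in capitals in the lines below. Other short motifs, such as GC boxes and SOX cores, were searched in the same way and are not marked. The windows are at chr10:76725995-76726294 for Col6a1 and chr10:76623581-76623880 for Col6a2, the latter at the start site that matches the annotated gene.
Col6a1: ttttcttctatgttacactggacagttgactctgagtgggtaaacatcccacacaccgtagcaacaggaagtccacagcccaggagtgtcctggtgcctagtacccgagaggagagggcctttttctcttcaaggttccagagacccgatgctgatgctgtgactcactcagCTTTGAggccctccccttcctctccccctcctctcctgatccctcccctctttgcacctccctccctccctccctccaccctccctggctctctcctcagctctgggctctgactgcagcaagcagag
Col6a2: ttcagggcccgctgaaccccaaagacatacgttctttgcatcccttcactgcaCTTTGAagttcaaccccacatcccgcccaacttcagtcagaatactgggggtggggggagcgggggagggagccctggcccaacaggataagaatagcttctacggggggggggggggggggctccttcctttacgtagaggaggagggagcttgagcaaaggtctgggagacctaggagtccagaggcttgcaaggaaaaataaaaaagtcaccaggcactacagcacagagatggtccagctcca
The core stands 78 bases before the RefSeq start site in Col6a1 and 197 bases before it in Col6a2. The GENCODE model of Col6a1 starts farther upstream, so its core lies inside the annotated gene. It was not found in the second Col6a2 window or in those of Col6a3, Hspg2, Nid1, Lamb1, Col4a1 and Col4a2, and 16.0% of all 32851 windows hold it. A match of letters is a description and does not show binding.

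Total counts ranged from 66750140 to 78873054 per library. Control replicate 1 stood apart, with 112185 counts of the female-specific RNA Xist and 0 of the Y-linked gene Ddx3y, while the other 3 libraries had 36 to 171 and 11073 to 12085. The targeted gene, Trabd2b, had 28513 and 31314 counts in controls and 22643 and 29473 in cKO. Its log2 fold change was -0.38 ± 0.11 (SE; edgeR quasi-likelihood test, adjusted p = 0.15). It was -0.23 without cKO replicate 1 and -0.54 without cKO replicate 2. Summed expression of 8 chondrocyte markers, all of them detected, was 25857 and 30335 CPM in control libraries (CPM is a count scaled to the library total) and stood at 15475 and 11631 CPM in the knockouts. Summed fibroblast markers (10 of 10 tested) were 9328 and 9077 CPM in control cultures, while the cKO cultures had 11460 and 12242 CPM, adipocyte markers (8 of 8) 220 and 223 CPM against 335 and 544 CPM, and pericyte and smooth muscle markers (9 of 10) 749.6 and 775 CPM against 966 and 829 CPM. Endothelial cells, which make basement membrane, left little trace: the sum of 10 markers lay between 5.14 and 6.58 CPM, and the marker Emcn was at 0 counts in all 4 libraries. Schwann cell markers summed to 6.85 to 10.6 CPM with Sox10 at 0, macrophage markers to 10.9 to 16.5 CPM, and skeletal muscle markers to 4.30 to 41.8 CPM. Of the markers, 7 of 8 chondrocyte genes fell, while Col1a1 and Col3a1 of the fibroblast list and Pdgfrb of the pericyte list rose. Of the 9 pericyte and smooth muscle markers tested, 4 were higher in both cKO libraries than in both controls, Pdgfrb and Cnn1 among them. None was lower in both. The groups overlapped for Acta2, Myh11 and Tagln of this list, at -0.06, -0.15 and 0.14 in log2 units. The higher sum therefore does not stand for the whole list. The part of the chondrocyte, fibroblast, adipocyte and pericyte markers in the results below was not tested.

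The 10 genes split into 5 that were lower and 5 that were higher in cKO. The 3 collagen VI chains, perlecan and Nid2 were lower in both cKO libraries than in both controls, and Nid1, Lamb1, Lamc1, Col4a1 and Col4a2 were higher in both. Of all genes tested, 49.8% had groups that do not overlap, 24.9% in each direction. Nid2 and Col6a1 fell (edgeR, Benjamini-Hochberg adjusted p under 0.05) and no member rose, against 1.3% of all genes called (0.908% lower and 0.393% higher). At an unadjusted p under 0.05 there were 5 lower and 4 higher members, all but Col4a2, against 17.2% of all genes (8.88% lower and 8.36% higher). Highly expressed genes pass more often: of the 2039 genes at 100 CPM or more, where all 10 members lie, 4.32% were called, 30.8% had an unadjusted p under 0.05 and 67.2% had groups that do not overlap. The median log2 fold change of the 10 was -0.02, beside 0.00 over all genes tested.

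Member calls changed with the fit, and so did the share of all genes called. DESeq2 called 4 members lower (4.58% of its genes) and 4 higher (3.7%), and limma-voom called 3 lower (1.46%) and 0 higher (0.683%). Without cKO replicate 1 there were 5 lower (2.94%) and 3 higher (1.95%). Without cKO replicate 2 the calls were 2 lower (0.715%) and 0 higher (0.282%). No member was called without control replicate 1 (0.0249% of genes lower, 0.00623% higher), without control replicate 2 (0.0812% and 0.0375%) or with replicate number as a block (0.129% and 0.0193%). Library sizes alone gave 1 lower (0.792%) and 0 higher (0.747%), DESeq2 size factors in edgeR 2 and 0 (0.889% and 0.393%), no filter 2 and 0 (0.752% and 0.298%), counts divided by 4 3 and 0 (1.76% and 0.927%), and crossed replicate numbers as a block 3 and 1 (2.2% and 1.44%).

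**Figure D1:**
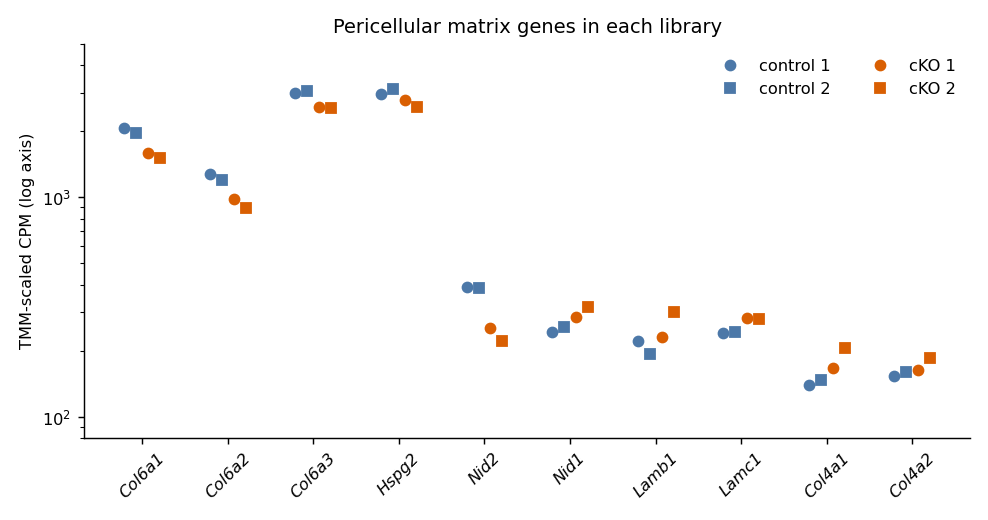
Expression of the 10 pericellular matrix genes in each library, as TMM-scaled CPM on a log axis. Blue points are the 2 control and orange points the 2 cKO libraries. The 5 genes on the left are lower in both cKO libraries and the 5 on the right higher, with the cKO points farthest below the control points for Nid2.

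Collagen VI is the filament that marks the pericellular shell. Its chains alpha 1, alpha 2 and alpha 3 are encoded by Col6a1, Col6a2 and Col6a3, and 1 of each makes the basic unit. RNA of all 3 chains was lower in both cKO libraries than in both controls, and edgeR called only Col6a1. Together they took 0.620% and 0.606% of all counts in controls and 0.522% and 0.509% in cKO. In bulk RNA, fewer cells of a type and less RNA per cell cannot be told apart.

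Col6a1 (chromosome 10, 76708792 to 76726168) was at 2065 and 1960.0 TMM-scaled CPM without Cre, and the cKO libraries had 1589 and 1509 CPM. Both cKO libraries lay below both controls by more than either pair differed within itself. Col6a1 fell by 0.38 ± 0.06 in log2 units (SE; 95% interval -0.52 to -0.24; edgeR adjusted p = 0.0434), which is 1.30-fold lower. This call is close to the threshold: the adjusted p was 0.0543 with library sizes alone, 0.0849 with replicate number as a block, and 0.212 and 0.2103 without control replicate 1 and without control replicate 2.

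Col6a2 (chromosome 10, 76595762 to 76623630) was at 1275 and 1198 CPM in the controls, compared with 978 and 890.2 CPM for cKO. Its log2 fold change was -0.41 ± 0.07 (edgeR adjusted p = 0.0571), a size much like that of Col6a1. Col6a2 passed in limma-voom (adjusted p = 0.0361), in DESeq2 (3.94e-06) and in edgeR with counts divided by 4 (0.0424). It also passed in edgeR with crossed replicate numbers as a block (0.0389), a setting chosen after seeing the data. In edgeR it missed the threshold with library sizes alone (0.0629), DESeq2 size factors (0.0587), no filter (0.0550) and replicate number as a block (0.0833). Leaving out 1 library gave log2 fold changes from -0.48 to -0.34.

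Col6a3 (chromosome 1, 90765923 to 90843971), the longest of the 3 chains, was at 2990.4 and 3052 CPM in control cultures, while the cKO cultures had 2574 and 2545 CPM. The 2 libraries of each group were close together and the groups did not overlap. For cKO over control its log2 fold change was -0.24 ± 0.05 (edgeR adjusted p = 0.0747). It was -0.25 without cKO replicate 1 and -0.23 without cKO replicate 2.

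The balance between the chains was compared within each library as a ratio of CPM per kilobase (kb) of the longest coding transcript. Col6a1 was 1.84-fold and 1.86-fold above Col6a2 in controls and 1.85-fold and 1.92-fold above it in cKO. The groups overlapped, so this ratio did not separate the genotypes (log2 difference 0.03; exact permutation test, two-sided p = 0.667). The ratio of Col6a3 to Col6a1 was 0.587 and 0.632 in controls and 0.657 and 0.684 in cKO, a log2 difference of 0.14, with groups that do not overlap. With 2 against 2 libraries the smallest p the exact permutation test can give is 0.333, which this ratio had. The absolute ratio depends on the length taken: with all annotated exons merged, Col6a1 was 3.08-fold to 3.22-fold above Col6a2.

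Other alpha chains that can take the place of alpha 3 were nearly silent. Col6a5 lay between 1.55 and 2.63 CPM, Col6a6 had 4 and 0 counts in controls and 35 and 22 in cKO, and Col6a4 had 12 counts in cKO replicate 1 and 0 in the other 3 libraries. The Col6a6 groups did not overlap, with an edgeR adjusted p of 0.248 at this low depth.

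Perlecan was among the most abundant members. Hspg2 (chromosome 4, 137468769 to 137570630) was at 2972 and 3126 CPM without Cre, and the cKO libraries had 2778 and 2583 CPM. The groups did not overlap, and the gap between them was about as wide as the difference between the cKO libraries. In the fit its log2 fold change was -0.19 ± 0.06 (edgeR adjusted p = 0.18). It was -0.24 without cKO replicate 1 and -0.13 without cKO replicate 2.

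The nidogens, paired linker proteins of basement membranes, lay on opposite sides of 0. Nid2 (chromosome 14, 19751265 to 19811787) was at 391.7 and 386 CPM in the controls, compared with 253 and 222 CPM for cKO. The control libraries differed by little and both cKO libraries were far below them. Nid2 fell by 0.71 ± 0.08 in log2 units (95% interval -0.90 to -0.52; edgeR adjusted p = 0.0289), 1.64-fold lower and the largest change among the 10 genes. The adjusted p was 0.0513 with replicate number as a block, 0.123 without control replicate 1 and 0.151 without control replicate 2. Exons of Rtraf on the opposite strand overlap 8.45% of the Nid2 exon length, and reads there may be shared. Rtraf was at 100.4 and 99.9 CPM in control cultures, while the cKO cultures had 90.2 and 81.2 CPM, all below the Nid2 values.

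Nid1 (chromosome 13, 13437551 to 13512269) was at 242 and 255 CPM without Cre, and the cKO libraries had 284 and 317 CPM. Both cKO libraries were above both controls, the opposite of Nid2. For cKO over control its log2 fold change was 0.27 ± 0.07 (edgeR adjusted p = 0.14). It was 0.35 without cKO replicate 1 and 0.19 without cKO replicate 2. An antisense gene, Gm48682, overlaps 2.06% of its exon length.

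Per kb, Nid2 was 2.02-fold and 1.89-fold above Nid1 in controls. In cKO the ratio was 1.12 in replicate 1 and 0.876 in replicate 2, so the 2 nidogens stood at about equal levels. Their mean levels in cKO were 48.8 ± 4.53 CPM per kb for Nid2 and 49.3 ± 3.84 for Nid1 (SD, n = 2), which do not differ beyond their spread. The log2 ratio differed by -0.98 between cKO and control, the widest shift of the 6 ratios examined (exact permutation test, two-sided p = 0.333, the smallest possible). After Benjamini-Hochberg adjustment over the 6 ratios, the exact permutation p was 0.5 for each of the 4 ratios whose groups do not overlap. Of the other pairs, Hspg2 stood 6.67-fold and 6.88-fold above Lamc1 in controls and 5.27-fold and 4.96-fold in cKO, while the Lamb1 to Lamc1 ratio overlapped between groups.

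**Figure D2:**
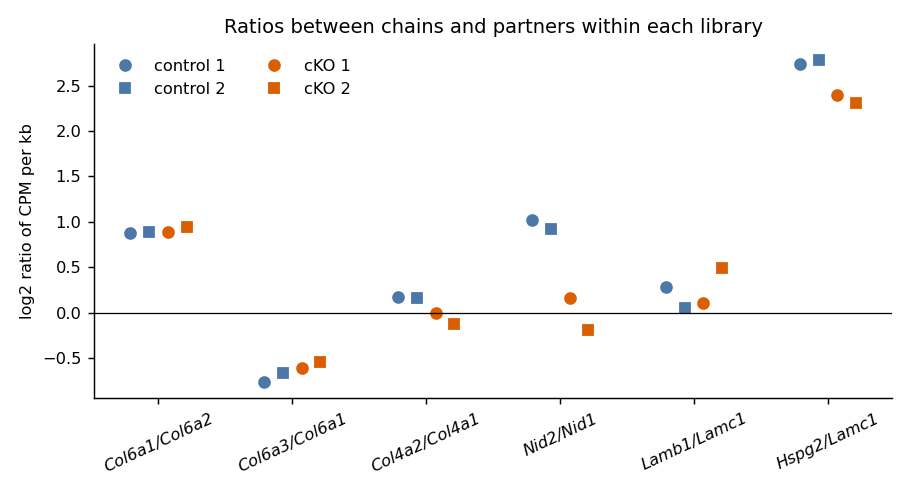
Log2 ratios of CPM per kb between partner chains, with 1 point per library, control in blue and cKO in orange. Nid2/Nid1 goes from 0.97 in controls to -0.02 in cKO on average, while Col6a1/Col6a2 stays at 0.89 and 0.91.

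Among the laminin chains, Lamb1 and Lamc1 encode beta 1 and gamma 1, which join with an alpha chain to form a cross-shaped trimer. Lamb1 (chromosome 12, 31265234 to 31329644) was at 220.4 and 192 CPM in the controls, compared with 231 and 299 CPM for cKO. The cKO libraries were higher but differed from each other by more than the gap between the groups. In the fit its log2 fold change was 0.36 ± 0.13 (edgeR adjusted p = 0.23). It was 0.53 without cKO replicate 1 (adjusted p = 0.0244) and 0.17 without cKO replicate 2 (adjusted p = 0.57).

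Lamc1 (chromosome 1, 153218922 to 153332786) was at 239 and 244 CPM in control cultures, while the cKO cultures had 283 and 279.6 CPM. Here both pairs of replicates were tight and well separated. For cKO over control its log2 fold change was 0.22 ± 0.05 (95% interval 0.09 to 0.35; edgeR adjusted p = 0.12), and it did not pass in any of the fits that leave out 1 library.

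The partner chains of these laminins were examined as well. Lama4 was the main alpha chain, at 292 and 314 CPM without Cre, and the cKO libraries had 276 and 304 CPM, with overlapping groups (log2 fold change -0.06, adjusted p = 0.72). Lama5 was at 87.5 and 86.8 CPM in the controls, compared with 126 and 95.6 CPM for cKO (log2 fold change 0.35, adjusted p = 0.23). Lamb2, the other abundant beta chain, was at 251 and 258 CPM in control cultures, while the cKO cultures had 305 and 269 CPM (log2 fold change 0.17, adjusted p = 0.32). Lama1, Lama2, Lama3, Lamb3 and Lamc3 stayed at or below 10.5 CPM in every library, and none of them passed. Per kb of the longest coding transcript, all alpha chains summed to 57.4 and 60.6 in controls. In cKO the alpha sum was 58.0 and 59.96, so the groups overlap. The beta sum was 84.3 and 81.2 in controls and 96.0 and 101 in cKO, higher in cKO without overlap. Both sums, and whether their groups overlap, depend on the length taken, and merged exon length was not used for them.

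**Figure D3:**
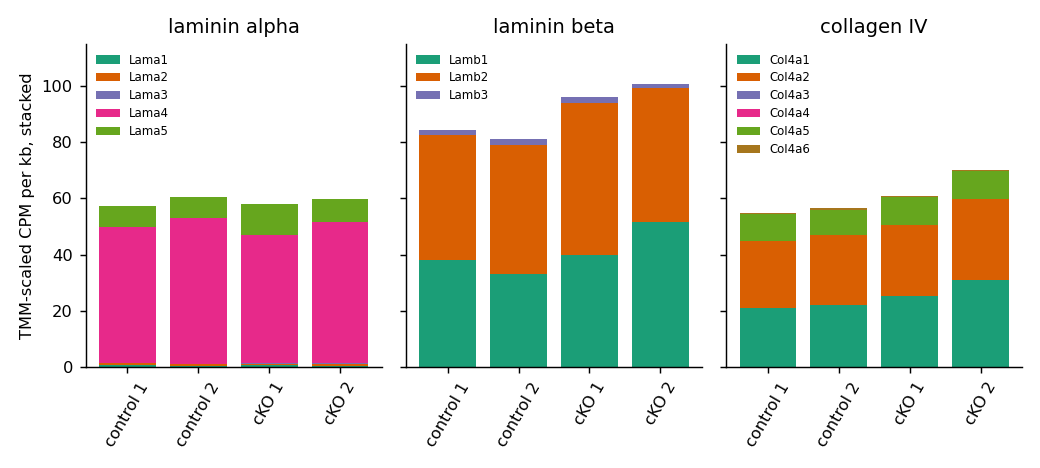
Stacked levels of the laminin alpha and beta chains and of the collagen IV chains in each library, in TMM-scaled CPM per kb of the longest coding transcript. Lama4 makes up most of the alpha class and Lamb1 with Lamb2 most of the beta class, and the alpha bars overlap between groups while the beta bars are higher in cKO.

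Collagen IV in these cells was mostly the alpha 1 and alpha 2 chains, which form the common trimer of 2 alpha 1 chains with 1 alpha 2 chain. Col4a1 (chromosome 8, 11198423 to 11312826) was at 139 and 146 CPM without Cre, and the cKO libraries had 167 and 206 CPM. All cKO values were above the controls, with replicate 2 the highest. In the fit its log2 fold change was 0.39 ± 0.10 (edgeR adjusted p = 0.13). It was 0.53 without cKO replicate 1 (adjusted p = 0.00883) and 0.23 without cKO replicate 2 (adjusted p = 0.24).

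Col4a2 (chromosome 8, 11312805 to 11449287), which starts beside Col4a1 in the shared promoter stretch printed above, was at 153 and 159 CPM in the controls, compared with 163 and 185 CPM for cKO. The lower cKO library was only just above the higher control. For cKO over control its log2 fold change was 0.15 ± 0.07 (95% interval -0.03 to 0.34; edgeR adjusted p = 0.36), and it was the 1 member without an unadjusted p under 0.05. Per kb, the ratio of Col4a2 to Col4a1 was 1.13 and 1.12 in controls and 0.999 and 0.919 in cKO, a log2 difference of -0.23 with groups that do not overlap (exact permutation test, two-sided p = 0.333, the smallest possible). The ratio of these divergent genes was thus lower in both cKO libraries. The genes' annotated exons overlap by 22 bases.

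Of the other collagen IV chains, Col4a5 was at 62.4 and 59.0 CPM in control cultures, while the cKO cultures had 63.6 and 64.3 CPM (log2 fold change 0.08, adjusted p = 0.59). Col4a5 is X-linked, and the library with Xist counts lay within the range of the other 3. Col4a3, Col4a4 and Col4a6 were at or below 3.09 CPM in every library, and none of them passed. Of the 14 other chains of these families tested, none was called, against 1.3% of all genes. Among them 2, Lama5 and Col6a6, had an unadjusted p under 0.05. Both were higher, against 8.36% higher and 8.88% lower of all genes. Both limma-voom and DESeq2 called 0 of the 14 chains, with no adjusted p from DESeq2 for Col6a6 and Lamc3. Without cKO replicate 2, edgeR gave Lama5 a log2 fold change of 0.53 (adjusted p = 0.0213).

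**Figure D4:**
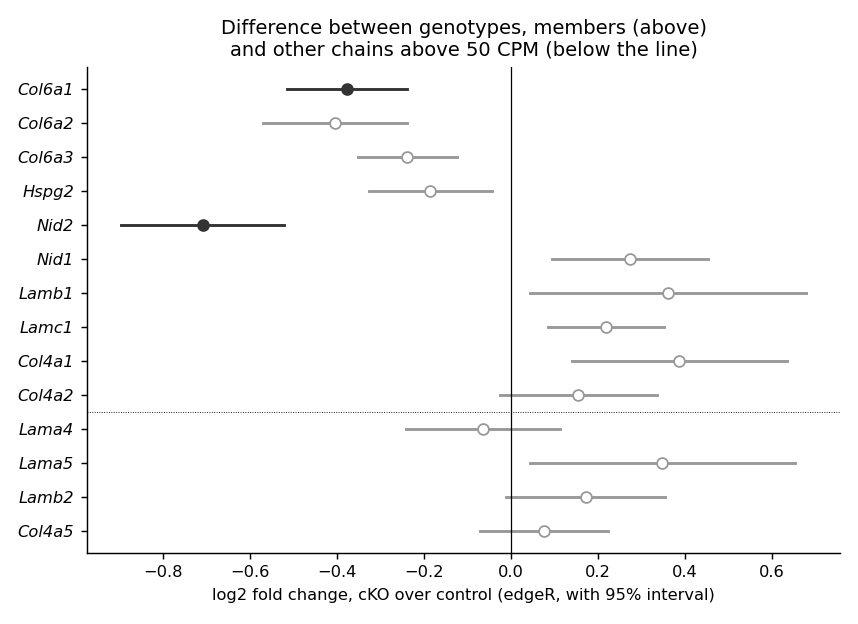
Log2 fold change of cKO over control with its 95% interval (edgeR) for the 10 genes and for 4 other chains of the families above 50 CPM. Filled points passed the threshold: Col6a1 at -0.38 and Nid2 at -0.71.

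Ordered by level per kb in controls, Col6a1 stood first at 491 ± 18.1 CPM per kb (SD, n = 2). Col6a3 followed at 299 ± 4.28, Col6a2 at 266 ± 11.7 and Hspg2 at 215 ± 7.64. After a wide gap came Nid2 at 79.8 ± 0.793, Nid1 at 40.8 ± 1.55, Lamb1 at 35.6 ± 3.48 and Lamc1 at 31.7 ± 0.450. Col4a2 at 24.2 ± 0.736 and Col4a1 at 21.6 ± 0.755 were lowest. The collagen VI and perlecan genes thus ranked far above the basement membrane network genes. This order depends on the length taken. With all annotated exons merged, Col6a2 was at 149 ± 6.56 CPM per kb, below Hspg2 at 213 ± 7.58, and Lamb1 at 20.8 ± 2.03 was below Lamc1 at 29.2 ± 0.415 and Col4a2 at 23.6 ± 0.717. With the longest coding transcript, no neighbours overlapped across the 2 control libraries. In cKO the means of the 4 highest kept their order, but Col6a2 and Hspg2 overlapped, as did Nid2, Nid1 and Lamb1, and Col4a1 at 28.2 ± 4.14 overlapped Col4a2 at 26.9 ± 2.38.

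Matrix proteins that bind or join these components had values in both directions, and 1 of 26 was called, against 1.3% of all genes. Matn1, a cartilage matrilin that connects matrix filaments, went from 100.1 and 134 CPM in controls to 42.8 and 44.9 CPM in cKO and fell by 1.42 ± 0.14 in log2 units (edgeR adjusted p = 0.0264). Matn1 is also 1 of the 8 chondrocyte markers. At an unadjusted p under 0.05, 8 of the 26 were higher and 6 lower, against 8.36% and 8.88% of all genes tested and 30.8% in either direction among genes at 100 CPM or more. Among the higher were Fbln1, a fibulin of basement membranes (log2 fold change 0.60 ± 0.10, edgeR adjusted p = 0.0549), and Pxdn, the peroxidase that crosslinks collagen IV (0.29 ± 0.05, adjusted p = 0.0598). Among the lower were Matn3, another matrilin (-1.64 ± 0.28, edgeR adjusted p = 0.0572), and Vwa1, a pericellular cartilage protein that binds perlecan and collagen VI (-0.94 ± 0.19, adjusted p = 0.0816). The list median was 0.11.

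Of 21 receptors and sensors of this matrix, 1 was called, against 1.3% of all genes tested. Itga6, a laminin-binding integrin subunit, went from 183 and 187 CPM to 104 and 87.3 CPM and fell by 0.95 ± 0.09 in log2 units (edgeR adjusted p = 0.0264). It missed the threshold without control replicate 1 (adjusted p = 0.111) and without control replicate 2 (0.117). Its partner Itgb1 had a log2 fold change of 0.04. Itga10, a collagen-binding integrin subunit of chondrocytes, was at -0.31 ± 0.06 (edgeR adjusted p = 0.0792), Cspg4, a proteoglycan that binds collagen VI, at -0.71 ± 0.15 (0.0830), Trpv4, a calcium channel that responds to osmotic and mechanical load, at -1.12 ± 0.21 (0.0676), and Sdc3, a heparan sulphate proteoglycan of the cell surface, at -0.44 ± 0.08 (0.0590). Antxr1, a collagen-binding receptor, was at 0.37 ± 0.06 (edgeR adjusted p = 0.0609). At an unadjusted p under 0.05, 1 receptor was higher and 7 were lower, against 8.36% and 8.88% of all genes. Among genes at 100 CPM or more, where most of this list lies, 30.8% had an unadjusted p under 0.05 in either direction. The list median was 0.00.

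The enzymes and carriers that fold, modify and export collagens were mostly lower. Of 21 genes, 19 had log2 fold changes below 0, the median was -0.17, and 1 was called. Over all 15522 genes tested, 7698 were below 0, the median was 0.00 and 0.908% were called lower. Plod2, a lysyl hydroxylase that prepares collagen for crosslinking, went from 859 and 881 CPM to 663 and 615 CPM and fell by 0.44 ± 0.06 in log2 units (edgeR adjusted p = 0.0375). It missed the threshold with replicate number as a block (adjusted p = 0.0882), without control replicate 1 (0.148) and without control replicate 2 (0.2103). Colgalt2, a collagen galactosyltransferase, was at -1.10 ± 0.19 (edgeR adjusted p = 0.0572), P4ha2, a prolyl hydroxylase subunit, at -0.47 ± 0.08 (0.0577), and P3h2, a prolyl 3-hydroxylase that acts on collagen IV, at -0.46 ± 0.09 (0.0782). At an unadjusted p under 0.05 there were 11 lower and 1 higher, the latter being P4ha3, against 8.88% and 8.36% of all genes. Among genes at 100 CPM or more, where most of this list lies, 30.8% had an unadjusted p under 0.05 in either direction.

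Perlecan carries heparan sulphate chains, and 25 genes of their synthesis, sulphation and trimming were examined. Over all genes tested, 1.3% were called. Papss2, which makes the sulphate donor, went from 323 and 345 CPM to 185 and 135 CPM and fell by 1.06 ± 0.14 in log2 units (edgeR adjusted p = 0.0373). It was the only call, and it missed the threshold with replicate number as a block (adjusted p = 0.0689), without control replicate 1 (0.131) and without control replicate 2 (0.189). The sulphate transporter gene Slc26a2 was at -0.56 ± 0.12 (edgeR adjusted p = 0.0835), Papss1, which makes the same donor, at -0.38 ± 0.08 (0.0867), and B4galt7, which builds the linker between protein and chain, at -0.30 ± 0.06 (0.0868). Xylt1, which starts the linker, was at -0.56 ± 0.12 (edgeR adjusted p = 0.0964). The chain-building polymerase genes Ext1 and Ext2 had log2 fold changes of 0.07 and -0.09. The same donors serve chondroitin sulphate chains. The list median was 0.00, with 6 lower and 1 higher at an unadjusted p under 0.05, against 8.88% and 8.36% of all genes.

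**Figure D5:**
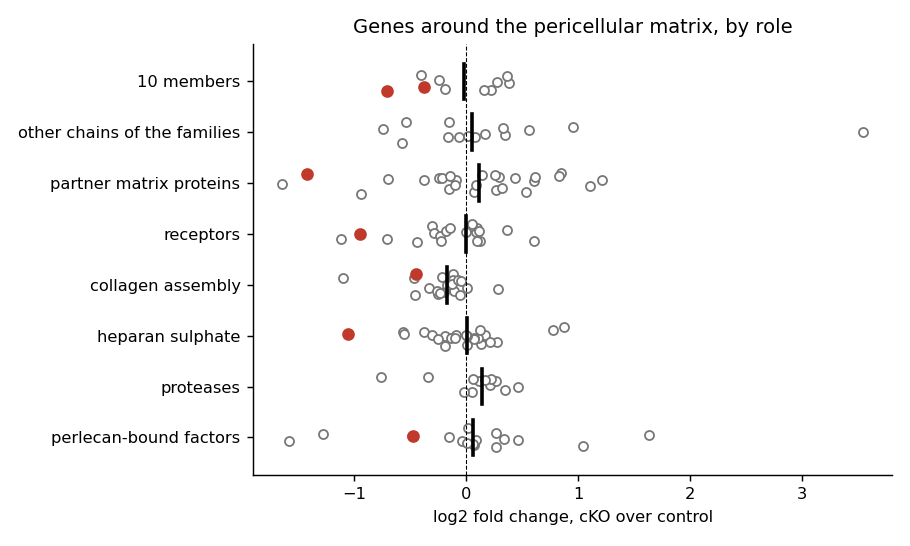
Log2 fold changes of cKO over control for each tested gene, grouped by role. Red points passed the threshold, black bars are medians, and the dashed line is the median of all genes tested. The collagen assembly genes lie mostly left of 0, and the point at the far right is Col6a6, with 0 to 35 counts per library.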

How the data were processed

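RNA was measured in 4 libraries, grouped by their titles. The authors deposited raw counts per gene symbol, which are whole numbers with no scaling. Tools named are StringTie 2.1.7, HISAT2 2.2.1, FastQC 0.11.9 and Trim Galore 0.6.7, with the build mm10, per the submitters' processing notes. The sources used here do not give the counting tool, its strand setting or its gene models, so overlapping genes may share reads. Nothing in the labels says that replicates are separate animals. The control libraries differ in Xist and Ddx3y counts, so they are not repeats of the same sample and their spread is not only technical. The spread between the cKO libraries may be only technical.

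Genes kept by filterByExpr (minimum count 10) were fitted in edgeR 4.0.16 (R 4.3.3) with TMM scaling and the quasi-likelihood test, no covariate, and Benjamini-Hochberg adjustment at 0.05 over 15522 genes. The fit was tested on simulated data. A standard error is the size of the log2 fold change divided by the root of the F statistic. Marker sums use library size alone. Alternatives used DESeq2 1.42.0, limma-voom 3.58.1, other scaling, no filter, a replicate block, counts divided by 4, and each library left out. Gene positions and transcript lengths were read from GENCODE M21, which shares the build. No molecular identifiers are mentioned, so duplicate reads count as separate.

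The 10 members and the gene lists were chosen with earlier results of these data known. Named genes are the members, the other chains of their families (1 is not reported here), Trabd2b, and in each list every called gene and up to 4 more by unadjusted p. Itgb1, Cspg4, Ext1, Ext2 and P4ha3 were added after their values were seen.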

Additional observations from a re-analysis of the deposited data

How the results depend on the processing

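All 10 members kept their direction in each of the 12 alternative fits, all of which reuse these libraries. The groups of all 10 did not overlap, so leaving out 1 library could hardly have reversed a direction. Calls depended on the tool and on single libraries. With the edgeR settings of the report, 2 members were called lower and 0 higher. With library sizes alone 1 was lower, with DESeq2 4 were lower and 4 higher, and with the replicate block 0 were called. Leaving out 1 library gave 0 to 5 lower and 0 to 3 higher, with 0 called without either control library and 8 without cKO replicate 1. Over all genes, 141 were lower and 61 higher with the settings of the report. Library sizes alone gave 116 higher, DESeq2 642 lower and 518 higher, limma-voom 227 and 106, the replicate block 20 and 3, counts divided by 4 243 and 128, and leaving out 1 library 4 to 470 lower and 1 to 312 higher. Of the 136 genes tested in the 7 other lists, 5 were called lower and 0 higher, against 0.908% and 0.393% of all genes. DESeq2 gave 31 and 12, limma-voom 12 and 3, counts divided by 4 12 and 3, library sizes alone 3 higher, the replicate block 2 lower, and leaving out 1 library 1 to 24 lower and 0 to 7 higher. The cause of these shifts was not tested.

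Replicate numbers are shared between the groups, but over 12933 genes the deviations of the libraries numbered 1 had a correlation of -0.18, so the numbers are not taken to pair the libraries. Crossed numbers as a block, chosen after seeing the data, gave 3 members lower and 1 higher, 341 genes lower and 223 higher, and 19 and 4 in the other lists. Merged exon length, also chosen after seeing the data, moved levels. By construction it moved no difference between groups in a single gene or in a log2 ratio of 2 genes. This does not hold for the laminin sums, where the length taken changes the weight of each chain. Library sizes alone moved the median log2 fold change by 0.06. With 2 libraries per group, one library decides many calls, and the control group holds 1 library of each sex, so no comparison within the sex of control replicate 1 could be made.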

Other observations

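Proteases that can cut the pericellular matrix gave no call among 12 tested, against 1.3% of all genes, and 3 more had 0 counts throughout. At an unadjusted p under 0.05, 2 were lower and 3 higher, against 8.88% and 8.36% of all genes. Mmp3, stromelysin, was at 6248 and 4677 CPM in control cultures, while the cKO cultures had 3010 and 3433 CPM, and its log2 fold change was -0.76 ± 0.14 (edgeR adjusted p = 0.0642). Mmp14, a membrane-bound collagenase, was at 0.21 ± 0.06 (edgeR adjusted p = 0.13) and Bmp1, a procollagen protease that also cuts perlecan and laminin chains, at 0.27 ± 0.07 (0.13). Mmp13, the main collagenase of cartilage, was at -0.34 ± 0.10 (edgeR adjusted p = 0.15).

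Among 17 tested growth factors and receptors linked to perlecan, 1 fell (edgeR adjusted p under 0.05), against 0.908% of all genes. At an unadjusted p under 0.05, 3 were lower and 3 higher, against 8.88% and 8.36% of all genes. Vegfa, an angiogenic factor, went from 473 and 449 CPM to 342 and 319 CPM, a drop of 0.48 ± 0.07 on the log2 scale (edgeR adjusted p = 0.0373). It missed the threshold with the replicate block (adjusted p = 0.0689) and without control replicate 1 (0.151), control replicate 2 (0.168) or cKO replicate 2 (0.0543). Fgfr3, a receptor for cartilage growth factors, was at 102 and 103 CPM without Cre, and the cKO libraries had 44.95 and 23.4 CPM (log2 fold change -1.59 ± 0.27, adjusted p = 0.0577). Fgf18, one of its ligands, was at 0.688 and 0.530 CPM in the controls, compared with 1.70 and 2.07 CPM for cKO (1.63 ± 0.39, adjusted p = 0.11). Ccn2, which perlecan holds in the pericellular matrix, had a log2 fold change of -0.49 ± 0.14 (adjusted p = 0.15).

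The cKO libraries were not equally far from the controls. For 9 of the 10 members, all but Lamc1, cKO replicate 2 lay farther from the control mean on the log2 scale than cKO replicate 1, as did 76.2% of the 202 called genes and 57.7% of all genes tested. Trabd2b itself was at 292 CPM in cKO replicate 1 and 363 CPM in cKO replicate 2, so the library with less of the targeted transcript was not the one farther from controls in most members. The counts cover the whole gene and do not show recombination.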
